A study of Mus musculus with 14 samples.

Results

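Of a time course of 14 arrays, 6 are described here: those of the SKO-transduced cells lysed on days 4, 5 and 6 after infection, 3 arrays with vitamin C and 3 without. They were chosen by their titles, and each treated array was set against the untreated array of its day. The cells were primary fibroblasts of mouse embryos (MEFs), infected in 2 rounds with retroviruses for the SKO factors: Sox2, Klf4 and Oct4, the last encoded by Pou5f1. The treated and untreated cells all carried these viruses. On day 2 they were moved to mouse embryonic stem cell medium with serum and the cytokine LIF, and the treated cells received vitamin C at 50 µg/ml from then on without a break. Days 4, 5 and 6 are thus 2, 3 and 4 days after the first addition. The other SKO arrays, from days 3, 8 and 10, serve below as comparisons, and 2 arrays of cells with a GFP virus are not used. No label used here gives the strain of the mice or the share of cells that carried the 3 factors.

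Vitamin C (ascorbate) keeps the iron of 2-oxoglutarate-dependent dioxygenases in its active, reduced state. These enzymes include the prolyl hydroxylases that mature collagen, those that mark the hypoxia-inducible factor HIF for destruction, the TET enzymes that oxidise methylated cytosine and the JmjC histone demethylases. Adding the vitamin to reprogramming cultures is known to raise the yield of pluripotent colonies from fibroblasts. Transduced fibroblasts pass first through a loss of fibroblast traits and a gain of epithelial ones, and turn on the genes of the pluripotency network later.

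Each condition had 1 array a day, so the day pairs the arrays. The error of a mean difference comes from variation over the days of this 1 time course. The limma fit draws that variation of each gene towards a value shared by all genes. P-values say nothing of variation between independent cultures. Values are log2 signals, and a difference of 1 is a 2-fold change. In bulk RNA, fewer cells of a type and less RNA per cell cannot be told apart. Embryonic fibroblast markers were high in both arms: the mean log2 signal of Col1a1 over the 3 days was 12.16 without and 12.16 with vitamin C, and that of Vim was 11.86 and 11.92. Within the window the pair of day 6 stood apart. The interquartile range of its treated array was 3.14, against 2.86 (treated, day 4) to 3.01 in the other 5 arrays. Deviations of the partners from the means of their arms correlated at Pearson r = 0.279 (19938 genes, which are not independent). On day 4 this was 0.443 and on day 5 0.616. A score of genes that alternate between successive days was 0.53 in the treated array of day 6 and 0.20 in the untreated one. The partners were close on day 4 (0.53 and 0.50) and day 5 (-0.44 and -0.48). These values do not tell which array of the day 6 pair was unusual. Outside the window the pair of day 8 had like traits. The interquartile range of its treated array was 3.17, and its scores were 0.15 treated and 0.54 untreated. The count of genes past the test is therefore given with and without day 6.

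More genes were higher than lower with vitamin C, and few of all genes passed the test. Of 19938 genes, 45 were higher (0.226%) and 15 lower (0.0752%) with vitamin C (limma, Benjamini-Hochberg adjusted p under 0.05; 1789 genes had an unadjusted p under 0.05). The 45 were led by Entpd1, the liver-type secreted protein genes Fetub and Kng2, and Tyrp1. The 15 were led by Anxa10 and included P4ha1, which encodes a collagen prolyl hydroxylase subunit. Differences ran from 1.66-fold to 4.19-fold among the higher genes and from 1.65-fold to 3.27-fold among the lower ones. Every one of the 60 had 1 direction on all 3 days. The 3 treated arrays lay wholly above the 3 untreated ones for 27 of the 45 and wholly below for 14 of the 15. Over all genes these shares were 4.23% above and 4.25% below, and since the 60 were called from the same arrays nothing is read from the comparison. For others, such as Tfcp2l1 and Trh, the signal also climbed from day to day in both arms, so that an untreated array of day 6 exceeded a treated one of day 4. Without day 6, 3 genes passed (Entpd1, Kng2 and Anxa10), without day 5 27 and without day 4 62. Without the day term 0 passed (limma; 811 at an unadjusted p under 0.05), with the alternation score as a covariate 1 (Entpd1), without the weakest genes 167 and with an intensity trend of the variance 230.

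**Figure D1:**
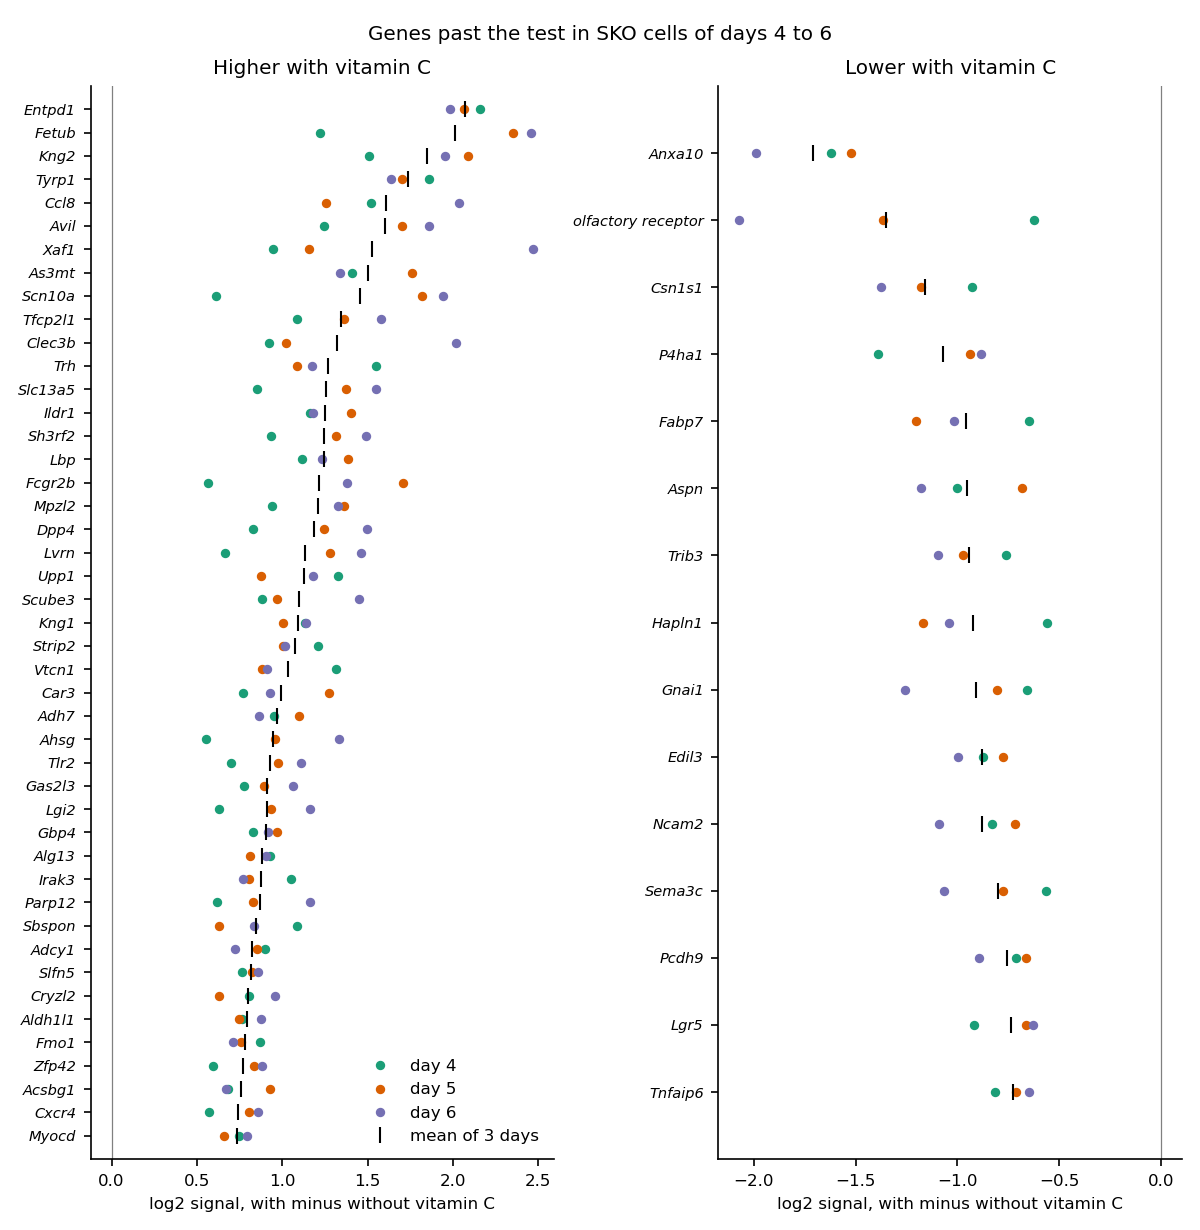
Log2 difference between the arrays with and without vitamin C on each of days 4, 5 and 6 (points) and its mean over the 3 days (black bars) for the 45 genes past the test that were higher (left) and the 15 that were lower (right). All points of a panel lie on 1 side of 0, and the mean differences reach 2.07 in Entpd1 and -1.71 in Anxa10.

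A group of 4 neighbouring genes of liver-type secreted proteins rose. Kng1 and Kng2 encode kininogens, the precursors of kinin peptides and inhibitors of cysteine proteases. Fetub and Ahsg encode the fetuins B and A, related plasma proteins. The log2 signal of Kng2 was 4.11, 5.02 and 5.11 without vitamin C on days 4, 5 and 6, and 5.61, 7.11 and 7.06 with it. Its lowest treated array was above its highest untreated one, and the mean difference was 1.85 ± 0.14 (SE of the limma fit; 3.60-fold, adjusted p = 0.00124). Fetub went from 5.45, 5.65 and 6.24 without to 6.67, 8.00 and 8.69 with vitamin C. The gap of Fetub was 1.22 on day 4 and 2.46 on day 6, with a mean of 2.01 ± 0.25 (4.03-fold, adjusted p = 0.0120). Kng1 read 4.38, 5.17 and 5.13 untreated and 5.51, 6.17 and 6.27 treated, a nearly constant gap (1.13, 1.01 and 1.14; 2.13-fold, adjusted p = 0.0120). Ahsg had the smallest difference of the 4, at 4.03, 4.36 and 4.16 without and 4.58, 5.31 and 5.50 with the vitamin (1.93-fold, adjusted p = 0.0446). For all 4 genes the treated arrays lay wholly above the untreated ones, as they did for 4.23% of all genes. Kng1 and Kng2 are close copies, and the array may not tell their transcripts fully apart. The list held 9 genes of this neighbourhood, in the order of the RefSeq annotation, and the other 5 did not pass. Among these Hrg, which encodes the histidine-rich glycoprotein of plasma, was near the bottom of the range in both arms (2.76 without and 2.82 with vitamin C, means of 3 days), and Rfc4, a replication factor gene, differed by -0.24.

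The other large differences among the higher genes were in Entpd1, As3mt, Tyrp1, Avil, Scn10a, Clec3b and Trh. Entpd1 encodes CD39, a surface enzyme that breaks down extracellular ATP and ADP. Its signal was 5.07, 6.07 and 6.36 without vitamin C and 7.23, 8.13 and 8.34 with it. The day gaps were nearly equal (2.16, 2.07 and 1.98), with a mean of 2.07 ± 0.17 (4.19-fold, adjusted p = 0.00124). As3mt, which encodes the enzyme that methylates arsenic, was flat in untreated cells (5.01, 5.21 and 5.18) and stood at 6.42, 6.97 and 6.52 with vitamin C (2.83-fold, adjusted p = 0.00438). Tyrp1, a pigment synthesis gene, read 4.50, 5.76 and 5.99 untreated against 6.36, 7.47 and 7.63 treated (3.33-fold, adjusted p = 0.00438). In these 3 genes no treated array fell into the untreated range. Avil, which encodes the actin-binding protein advillin, went with time from 5.59 to 6.89 without and from 6.84 to 8.75 with vitamin C, so its groups overlapped (3.04-fold, adjusted p = 0.00379). Scn10a, a sodium channel gene of sensory neurons, had its smallest gap on day 4 (0.61) and gaps of 1.82 and 1.94 on the next days (2.74-fold, adjusted p = 0.0297). Clec3b, the tetranectin gene, was 2.50-fold higher (adjusted p = 0.0323), with its largest gap, 2.02, on day 6. Trh, the gene of the thyrotropin-releasing hormone, climbed from 6.62 through 7.98 to 9.06 without vitamin C and from 8.17 through 9.07 to 10.23 with it. The treated values of days 4 and 5 were close to the untreated values of days 5 and 6, and the mean difference was 1.27 ± 0.14 (2.41-fold, adjusted p = 0.00540).

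The remaining higher genes, named here after their values were seen, were smaller in difference. They included the citrate transporter Slc13a5 (2.39-fold), the surface peptidase Dpp4 (2.28-fold) and the aminopeptidase Lvrn (2.19-fold). Among them were also Upp1, a uridine phosphorylase (2.18-fold), Car3, a carbonic anhydrase (1.99-fold), the alcohol dehydrogenase Adh7 (1.96-fold) and the flavin monooxygenase Fmo1 (1.72-fold). Further higher genes were Lbp, which encodes the lipopolysaccharide-binding protein (2.37-fold), the receptor Tlr2 (1.90-fold), Irak3, an inhibitor of Toll-like receptor signals (1.83-fold), the inhibitory Fc receptor Fcgr2b (2.33-fold) and the T cell inhibitor Vtcn1 (2.05-fold). Of the chemokine genes Ccl8, which the naming rule covers, went from 3.71, 4.60 and 4.67 to 5.23, 5.86 and 6.70 (3.04-fold, adjusted p = 0.00501), and the chemokine receptor gene Cxcr4 was 1.67-fold higher. Ccl8 was the only one of 49 secretory and inflammatory genes past the test, and the list median was -0.04, against -0.0015 over all genes. Il6 (-0.63, adjusted p = 0.209), Cxcl2 (-0.59, adjusted p = 0.279) and Csf1 (0.60, adjusted p = 0.128) did not pass.

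**Figure D2:**
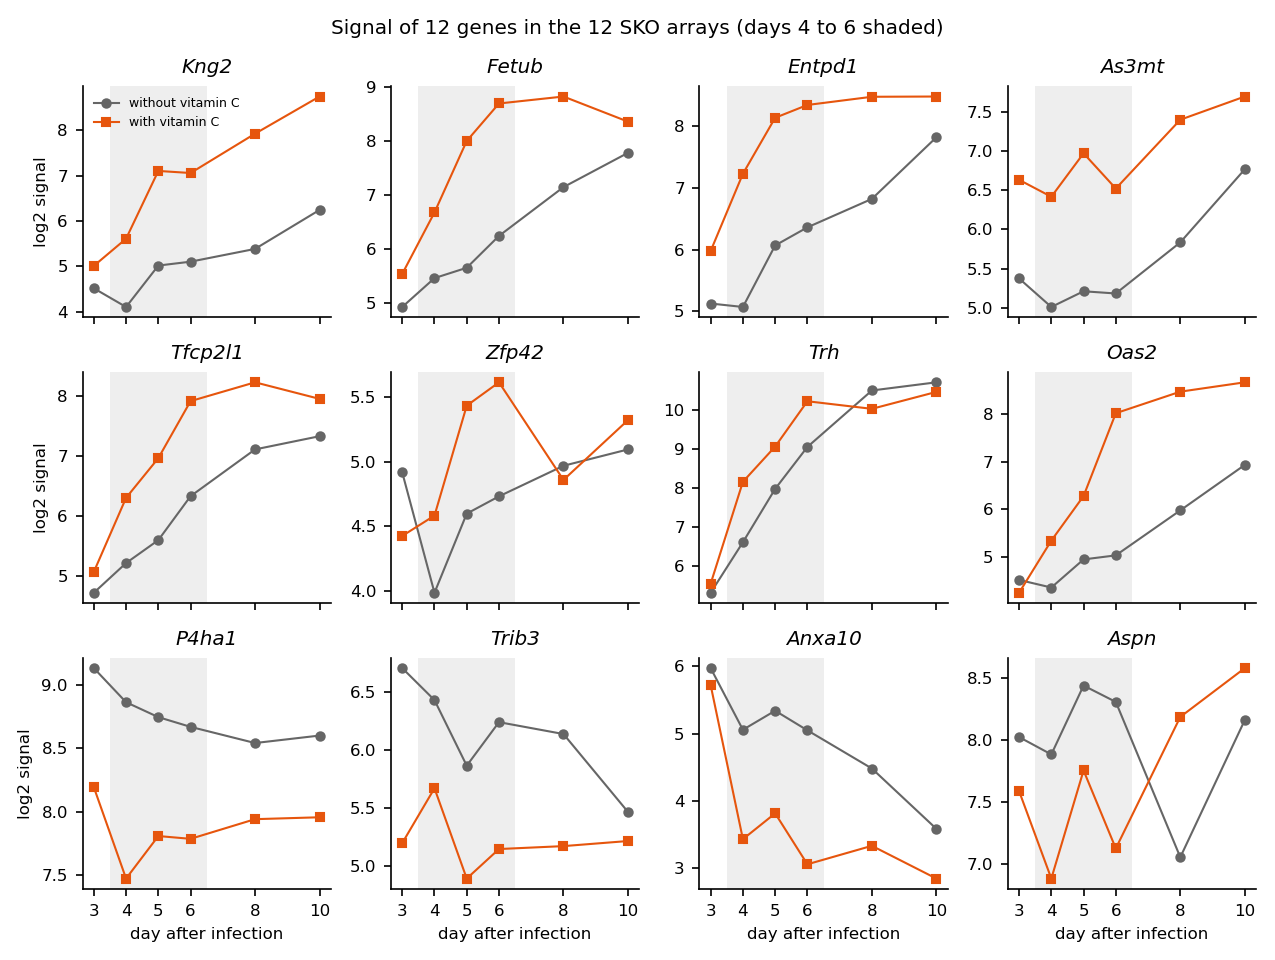
Log2 signal of 12 genes on the 6 arrays with vitamin C (squares) and the 6 without it (circles), by day after infection; each point is 1 array, and days 4, 5 and 6 are shaded. Within the shading the treated points lie above the untreated ones of the same day in the first 8 panels and below them in P4ha1, Trib3, Anxa10 and Aspn.

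Among pluripotency genes, 2 of 42 rose and 0 fell, against 0.226% and 0.0752% of all genes. Tfcp2l1, a transcription factor of naive embryonic stem cells, read 5.22, 5.60 and 6.33 without vitamin C and 6.30, 6.96 and 7.91 with it (2.54-fold, difference 1.34 ± 0.15, adjusted p = 0.00578). It climbed in both arms, and the treated array of each day lay above the untreated one. Zfp42, the gene of the stem cell marker Rex1, stayed low, at 3.99, 4.60 and 4.73 untreated and 4.58, 5.43 and 5.61 treated (1.71-fold, adjusted p = 0.0476). In 14 other settings of the fit, given at the end, Tfcp2l1 passed in 11 and Zfp42 in 5. These settings are not all distinct. The 6 arrays alone, leaving out day 8 and leaving out day 10 amount to the same test of days 4 to 6. The mean of a gene's probes leaves the values of 1-probe genes such as these unchanged. With the 6 arrays alone Zfp42 did not pass (limma, adjusted p = 0.0519). The difference of Zfp42 was -0.49 on day 3, -0.11 on day 8 and 0.23 on day 10. Its promoter is shown because it holds the octamer ATTTGCAT, the motif bound by Oct4, here in capitals (RefSeq, assembly GRCm38.p6, chr8:43306960-43307259, minus strand):
Zfp42: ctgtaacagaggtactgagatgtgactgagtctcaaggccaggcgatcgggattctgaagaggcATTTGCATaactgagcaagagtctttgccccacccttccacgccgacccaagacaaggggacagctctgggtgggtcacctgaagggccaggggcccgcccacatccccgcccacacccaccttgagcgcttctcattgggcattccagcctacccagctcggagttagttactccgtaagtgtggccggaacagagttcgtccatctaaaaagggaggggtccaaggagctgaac
This window, like the others printed below, runs from 250 bases before to 50 bases after the start of the gene. Both strands were searched for 4 motifs, each on its own, so matches of different motifs may overlap. The octamer was found in 297 of 15614 genes with a promoter (1.9%), in 2 of the 34 higher genes that had one and in 2 of the 13 lower genes. A match says only that the letters are there.

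The other pluripotency genes did not pass. Nanog was at 5.35, 5.17 and 5.46 without and 5.89, 5.54 and 5.62 with vitamin C (0.36 ± 0.15, adjusted p = 0.497). Gdf3 (0.63), Alpl (0.61), Fbxo15 (0.59) and L1td1 (0.45) had adjusted p-values between 0.106 and 0.352. On all 3 days 14 of the 42 genes were higher, or 33.3%, against 15.2% of all genes. The list median was 0.19 on day 4, 0.12 on day 5 and 0.01 on day 6. None of 39 epithelial genes passed, and their median was 0.02. Higher on all 3 days were 12 of the 39 (30.8%) and lower 3 (7.69%), against 15.2% and 16.6% of all genes. St14, a membrane protease gene of epithelia (0.62, adjusted p = 0.0830), Dsp, the desmoplakin gene (0.57), Epcam (0.39) and Cdh1, which encodes E-cadherin (0.07), were the members read singly. None of the 3 transduced factors passed. Pou5f1 read 12.18, 11.76 and 12.42 untreated and 12.16, 11.83 and 12.49 treated (0.04 ± 0.13), Klf4 differed by -0.12 ± 0.14 and Sox2 by 0.04 ± 0.14. Viral and cellular transcripts of these genes were not told apart.

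Of 45 interferon response genes 3 rose and 0 fell, against 0.226% and 0.0752% of all genes. The others lay on the same side of 0. Interferons induce these genes as a defence against viruses. The 3 were Xaf1, a binding partner of the apoptosis inhibitor XIAP, Parp12, an ADP-ribosyltransferase gene, and Slfn5, of the Schlafen family. Xaf1 was at 5.24, 5.57 and 5.09 without vitamin C and 6.18, 6.73 and 7.56 with it (2.88-fold, adjusted p = 0.0476). Slfn5 read 3.57, 3.95 and 4.03 untreated and 4.33, 4.77 and 4.89 treated, with gaps of 0.76, 0.82 and 0.86 (1.76-fold, adjusted p = 0.0270). The gap of Slfn5 was steady, whereas that of Xaf1 was 0.95 on day 4 and 2.47 on day 6. In the same 14 other settings of the fit, which are not all distinct, Slfn5 passed in 9, Xaf1 in 7 and Parp12 in 6. All 45 genes had a mean difference above 0, against 9885 of all 19938. On each of the 3 days 31 of them (68.9%) were higher, against 15.2% of all genes. The list median was 0.67, and by day it was 0.30, 0.67 and 1.09, while the median of all genes stayed between -0.02 and 0.01. Several larger differences did not pass, and their gaps were unequal between days. Oasl2, of the oligoadenylate synthetase family, went from 5.15, 4.82 and 5.22 to 5.78, 6.80 and 8.02, a mean of 1.81 with an SD over days of 1.10 (adjusted p = 0.0686). Its relative Oas2 had gaps of 0.99, 1.33 and 2.99 (mean 1.77, adjusted p = 0.0505), and Rtp4, a chaperone gene induced by interferon, gaps of 0.45, 1.16 and 3.01 (mean 1.54, adjusted p = 0.177). Day 6, whose pair of arrays stood apart, carried the largest gap in each of these 3 genes, and its part in the result was not tested. Without day 6 the difference was 1.31 for Oasl2, 1.16 for Oas2 and 0.81 for Rtp4.

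Of the 8 interferon-inducible GTPases, cell-autonomous defence proteins, Gbp4 passed as higher, against 0.226% of all genes. It was at 3.66, 3.85 and 4.02 without and 4.49, 4.82 and 4.93 with vitamin C (1.87-fold, adjusted p = 0.0214). Gbp3 (1.26, adjusted p = 0.0936), Gbp9 (0.82) and Gbp7 (0.73) did not. The Gbp genes are close relatives, and the array may not tell them fully apart. None of 21 genes of interferons, their receptors and signalling passed and their median was 0.01. Ifnb1, the interferon beta gene, was low in both arms (3.77, 3.78 and 3.83 untreated, 4.02, 3.96 and 4.09 treated), and Sting1, an adaptor of DNA sensing, differed by 0.46 (adjusted p = 0.212). None of 16 genes of MHC class I presentation passed (median 0.09). The promoters of Slfn5 and Ifit3 are shown because they hold the core of the interferon-stimulated response element, GAAANNGAA, in capitals on either strand. Ifit3 encodes an antiviral RNA-binding family member, was at least 1.5-fold higher on each day and did not pass (1.18, adjusted p = 0.0826). The windows are chr11:82951852-82952151 and chr19:34583279-34583578, both on the plus strand:
Slfn5: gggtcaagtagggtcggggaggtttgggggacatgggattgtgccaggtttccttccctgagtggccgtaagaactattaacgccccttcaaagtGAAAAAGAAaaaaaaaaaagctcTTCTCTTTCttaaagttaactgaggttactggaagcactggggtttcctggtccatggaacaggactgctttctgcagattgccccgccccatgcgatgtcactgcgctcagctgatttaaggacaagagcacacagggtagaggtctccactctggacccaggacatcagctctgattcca
Ifit3: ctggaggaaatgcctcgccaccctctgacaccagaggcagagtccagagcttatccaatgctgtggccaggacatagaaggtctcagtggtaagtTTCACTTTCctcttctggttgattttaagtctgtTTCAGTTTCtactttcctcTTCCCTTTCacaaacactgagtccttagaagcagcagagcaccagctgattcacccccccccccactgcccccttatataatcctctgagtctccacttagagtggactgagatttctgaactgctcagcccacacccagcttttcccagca
The core occurred in 9.2% of the 15614 promoters, in 5 of the 34 higher genes with one (Dpp4, Scube3, Irak3, Slfn5 and Acsbg1) and in 0 of the 13 lower genes.

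**Figure D3:**
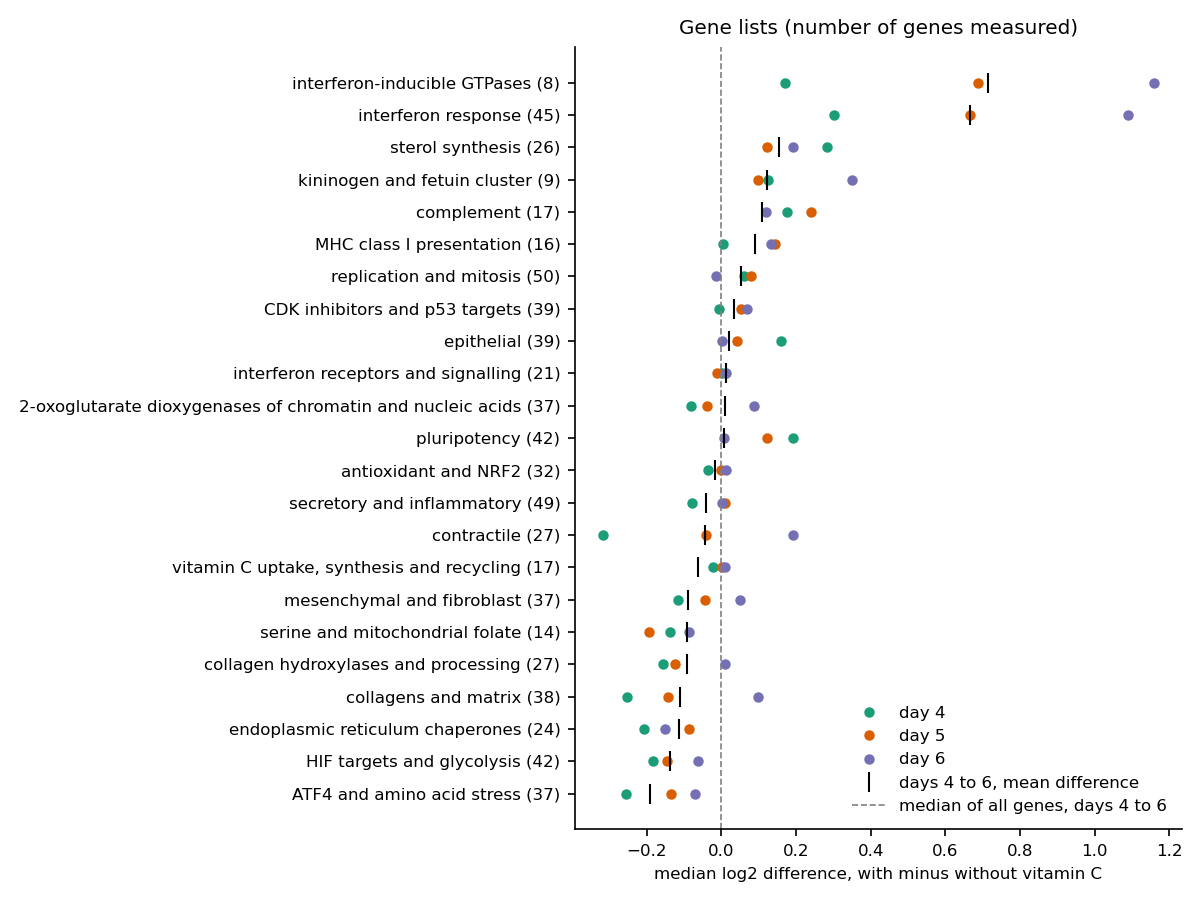
Median log2 difference between arrays with and without vitamin C over the genes of each list, on days 4, 5 and 6 (points) and for the mean of the 3 days (black bars); the number of genes measured stands in brackets and the dashed line is the median of all genes. The lists of interferon response genes and interferon-inducible GTPases lie farthest to the right. Their medians grow from day 4 to day 6, up to 1.09 for the 45 response genes. The list of interferon receptors and signalling has a median of 0.01.

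P4ha1 was the only gene of the collagen hydroxylase list past the test, and it fell. It encodes the main catalytic subunit of collagen prolyl 4-hydroxylase, which hydroxylates proline so that the collagen triple helix is stable, and it is also a known HIF target. Its signal was 8.86, 8.74 and 8.67 without vitamin C and 7.47, 7.81 and 7.78 with it. The highest treated array was below the lowest untreated one, and the difference was -1.07 ± 0.14 (2.10-fold lower, adjusted p = 0.0127). P4ha2, the second catalytic subunit, read 7.57, 7.18 and 7.07 untreated and 6.70, 6.62 and 6.53 treated, without overlap, and did not pass (-0.66, adjusted p = 0.0782). Of 27 genes of collagen hydroxylation and processing, P4ha1 alone passed, against 0.0752% of all genes lower, and the list median was -0.09. Adamts3, a procollagen-cleaving protease gene (-0.66, adjusted p = 0.0889), Lox, which encodes the enzyme that crosslinks collagen (-0.53), and Plod2, a lysyl hydroxylase gene (-0.34), were lower on each of the 3 days without passing. Of 42 HIF targets and glycolysis genes, again P4ha1 alone passed. Their median was -0.14, and 20 of the 42 (47.6%) were lower on all 3 days, against 16.6% of all genes. Bnip3, a mitophagy gene (-0.62, adjusted p = 0.143), Tfrc, the transferrin receptor gene (-0.50), and Slc16a3, a lactate exporter gene (-0.44), did not pass. The promoter of P4ha1 is shown with the core of the hypoxia response element, ACGTG, in capitals (on the opposite strand; chr10:59323046-59323345, plus strand):
P4ha1: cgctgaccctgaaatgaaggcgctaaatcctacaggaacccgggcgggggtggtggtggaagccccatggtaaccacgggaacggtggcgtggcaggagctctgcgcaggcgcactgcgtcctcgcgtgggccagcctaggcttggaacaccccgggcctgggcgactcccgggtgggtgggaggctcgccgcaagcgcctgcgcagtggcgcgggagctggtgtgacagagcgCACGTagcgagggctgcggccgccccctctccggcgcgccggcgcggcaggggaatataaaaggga
Such a short core is common: it occurred in 24.4% of the promoters, in 4 of the 13 lower genes with one (Sema3c, Gnai1, Aspn and P4ha1) and in 7 of the 34 higher genes.

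Anxa10, an annexin gene, had the largest difference among the lower genes. It was at 5.06, 5.34 and 5.05 without and 3.43, 3.82 and 3.06 with vitamin C (-1.71 ± 0.14, 3.27-fold lower, adjusted p = 0.00124). The groups were more than 1 log2 unit apart at their nearest arrays. Of 38 collagen and matrix genes 2 fell and 0 rose, against 0.0752% and 0.226% of all genes. Aspn, which encodes the collagen-binding proteoglycan asporin, read 7.89, 8.44 and 8.31 untreated and 6.89, 7.76 and 7.13 treated (1.94-fold lower, adjusted p = 0.0469). Hapln1, whose product links hyaluronan to proteoglycans, read 4.85, 5.25 and 4.82 against 4.29, 4.08 and 3.78 (1.90-fold lower, adjusted p = 0.0335). The matrix list as a whole had a median of -0.11, from -0.25 on day 4 to 0.10 on day 6. Eln, the elastin gene (0.62, adjusted p = 0.274), Postn, the periostin gene (-0.57), and Tnc, the tenascin C gene (-0.56), did not pass. Csn1s1, a milk casein gene, went with time from 5.90 through 6.87 to 8.00 without and from 4.97 through 5.69 to 6.62 with vitamin C (2.24-fold lower, adjusted p = 0.0120). It was the only lower gene whose groups overlapped. Fabp7, a fatty acid-binding protein gene of neural precursors (1.94-fold), Gnai1, a G protein subunit gene (1.88-fold), the integrin ligand gene Edil3 (1.84-fold), the adhesion molecule gene Ncam2 (1.84-fold) and the guidance molecule gene Sema3c (1.74-fold) were lower with adjusted p-values between 0.0282 and 0.0476. Genes with smaller differences, named after their values were seen, were Lgr5, the R-spondin receptor gene (1.67-fold lower), Pcdh9 (1.69-fold) and Tnfaip6, a hyaluronan-binding protein gene (1.65-fold). The last of the 15 is an olfactory receptor gene, which the naming rule counts without its symbol (-1.35 ± 0.23, 2.55-fold lower, adjusted p = 0.0481). Its signal was near the bottom of the range, at 3.22, 3.43 and 3.84 without and 2.60, 2.07 and 1.77 with vitamin C.

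Of 37 stress genes driven by the transcription factor ATF4, 1 fell and 0 rose, against 0.0752% and 0.226% of all genes. Trib3, a pseudokinase gene that ATF4 induces under amino acid or endoplasmic reticulum stress, was at 6.43, 5.86 and 6.24 without and 5.67, 4.89 and 5.14 with vitamin C, without overlap (-0.94 ± 0.15, 1.92-fold lower, adjusted p = 0.0420). The list median was -0.19, and by day it was -0.26, -0.14 and -0.07. On all 3 days 17 of the 37 (45.9%) were lower, against 16.6% of all genes. Ddit3, which encodes CHOP, had its largest gap on day 4 (-1.13, then -0.52 and -0.18; adjusted p = 0.227). Asns, the asparagine synthetase gene (-0.54, adjusted p = 0.203), Vldlr (-0.60) and Atf5 (-0.45) did not overlap between the arms and did not pass. Of all genes, 4.25% lay wholly below with vitamin C. Chac1, a glutathione-degrading enzyme gene of the same response, differed by -0.19 and Slc7a3, an arginine transporter gene, by 0.80 (adjusted p = 0.390). The promoter of Trib3 is shown with the core of the C/EBP-ATF response element that ATF4 binds, TGATGNAA, in capitals (opposite strand; chr2:152344011-152344310, minus strand):
Trib3: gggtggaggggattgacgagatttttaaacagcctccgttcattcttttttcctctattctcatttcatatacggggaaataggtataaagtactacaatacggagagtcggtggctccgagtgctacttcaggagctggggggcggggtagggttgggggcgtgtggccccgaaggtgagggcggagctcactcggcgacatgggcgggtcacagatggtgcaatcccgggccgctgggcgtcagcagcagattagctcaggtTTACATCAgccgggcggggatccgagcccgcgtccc
It occurred in 3.62% of the promoters, in 2 of the 13 lower genes with one (Trib3 and Aspn) and in 1 of the 34 higher genes.

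In the list of serine and folate genes, 1 of 14 rose and 0 fell, against 0.226% and 0.0752% of all genes. Aldh1l1, the cytosolic enzyme gene of formyl-tetrahydrofolate oxidation, rose from 4.91, 4.53 and 4.71 to 5.68, 5.28 and 5.59 (1.74-fold, adjusted p = 0.0446). Its mitochondrial relative Aldh1l2 read 6.59, 5.95 and 5.54 untreated and 4.88, 4.67 and 5.08 treated, and did not pass (-1.15, adjusted p = 0.0678). Aldh1l2 had no overlap between the groups, and its gap narrowed from -1.71 on day 4 to -0.46 on day 6. Mthfd2, of mitochondrial folate metabolism, was lower by nearly the same step each day (-0.49, -0.51 and -0.50; adjusted p = 0.160), and Phgdh, of serine synthesis, differed by -0.41 (adjusted p = 0.284). None of 24 endoplasmic reticulum chaperone genes passed, and the median was -0.11. Of the 24, 10 (41.7%) were lower on all 3 days, against 16.6% of all genes.

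The genes of enzymes thought to mediate vitamin C effects on chromatin did not pass. Of 37 genes of 2-oxoglutarate dioxygenases that act on chromatin, DNA or RNA, 0 passed and the median was 0.01. Tet1 differed by -0.07, Tet2 by 0.44 (adjusted p = 0.383) and Tet3, whose 2 probes differed in sign, by 0.04, and the histone demethylase genes Kdm2a and Kdm2b by -0.09 and -0.08. The arrays measure the mRNA of these enzymes and not their activity. None of 17 genes of vitamin C uptake, synthesis and recycling passed: the transporter genes Slc23a1 and Slc23a2 differed by -0.17 and 0.04, and Cyb561, a transmembrane ascorbate reductase gene, by 0.59 (adjusted p = 0.171). Cdkn2a (0.17) and Cdkn2b (-0.01), senescence-linked inhibitors of cell division, did not pass, nor did any other of 39 CDK inhibitor and p53 target genes or 50 replication and mitosis genes (medians 0.03 and 0.05). The lists of 37 mesenchymal, 27 contractile, 32 antioxidant and 17 complement genes likewise had 0 genes past the test. Their largest differences included the thioredoxin gene Txn1 at -0.86 (adjusted p = 0.315), the complement factor B gene Cfb at 0.95 (adjusted p = 0.121) and the non-muscle myosin gene Myh10 at -0.51 (adjusted p = 0.143). The median of the contractile list went from -0.32 on day 4 to 0.19 on day 6. Complement genes were higher on all 3 days in 6 of 17 (35.3%) and lower in 1 (5.88%), against 15.2% and 16.6% of all genes. Sterol synthesis genes had none past the test either, with a median of 0.15, Ebp at 0.53 (adjusted p = 0.149) and Dhcr7 at 0.47. Of the 26, 15 (57.7%) were higher on all 3 days, against 15.2% of all genes.

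Markers of other cell types were read beside these groups. None of 20 macrophage, 12 endothelial, 14 neural, 14 skeletal muscle or 6 erythroid markers passed, and their medians lay between -0.10 and 0.10. Neural markers were lower on all 3 days in 6 of 14 (42.9%) and higher in 3 (21.4%), against 16.6% and 15.2% of all genes. Of 11 adipocyte markers Car3 passed, while Fabp4 was 3.24 without and 3.07 with vitamin C. The mean signal of the macrophage list on days 4, 5 and 6 was 4.60, 4.75 and 4.84 in the untreated arrays and 4.63, 4.80 and 4.77 in the treated ones. Of its defining genes, Adgre1, which encodes F4/80, was 3.74 without and 3.51 with vitamin C and Csf1r 4.66 and 4.41. Itgam went the other way, from 4.51 to 5.16 (adjusted p = 0.179). Differences of the 20 markers ran from -0.36 to 0.66. Of the 20, 4 were higher on all 3 days and 0 lower (20% and 0%, against 15.2% and 16.6% of all genes). The macrophage median was -0.04, 0.11 and -0.17 on days 4, 5 and 6. Macrophages express interferon response genes too, and their part in the differences of those genes was not tested. The 10 embryonic fibroblast markers had a median of 0.01, with Thy1 at 0.19 and Pdgfra at -0.11.

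A count that uses no test gave a similar picture. At least 1.5-fold on each of days 4, 5 and 6, 63 genes were higher (0.316%) and 18 lower (0.0903%), and 42 and 13 of these had also passed the test. Among those that had not were Oas2, Oasl2, Gbp3 and Ifit3, described above. Interferon response genes made up 8 of the 63, which is 8 of the 45 on their list, against 0.316% of all genes. No gene of the ATF4 list other than Trib3 was among the 18. The collagen hydroxylase list had 2 of its 27 genes among the 18, against 0.0903% of all genes.

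Whether the difference changed within the window was tested as a slope per day, and 0 genes passed (limma; 1351 at an unadjusted p under 0.05). The slopes of the interferon genes were positive, 1.28 per day for Rtp4 and 1.09 for Oasl2 (adjusted p = 0.730 and 0.730). Against day 3, 1 day after the vitamin was first added, 0 genes differed in their response either (850 at an unadjusted p under 0.05), and with 1 pair on day 3 this test was weak. On day 3 itself 41 of the 45 higher and 12 of the 15 lower genes had the same sign, while 51.07% of all genes were higher. The median difference of the 45 was 0.43 on day 3, then 0.92, 1.01 and 1.17 on days 4, 5 and 6; the values of the last 3 days were used to choose the genes. Genes picked here after their values were seen show the range of gaps on day 3: As3mt had a gap of 1.26, Strip2 of 1.20, Trib3 of -1.51 and P4ha1 of -0.94. Gaps that were small on day 3 beside those of days 4 to 6 were those of Tyrp1 (0.43), Ccl8 (0.30), Anxa10 (-0.25) and Csn1s1 (0.03, of the opposite sign).

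The differences of days 8 and 10 did not enter the mean difference by which the 60 genes were called. They did enter the fit's spread, so genes with like gaps on days 8 and 10 passed more easily. With the 6 arrays of days 4 to 6 alone, 44 of the 60 passed. The later days are thus not an independent check of the 60. The pair of day 8 had array traits like those of the day 6 pair, given above. Most of the 60 kept their direction there: 39 of the 45 higher and 13 of the 15 lower genes had the same sign on both days. Over all genes 46.25% were higher on day 8 and 50.29% on day 10, and the share with 1 sign on both was not counted. On those days 143 genes were higher (0.717% of all) and 49 lower (0.246%). They included 25 of the 45 and 5 of the 15, or 25 of the 143 and 5 of the 49. Kng2 was 2.52 higher there, Slfn5 1.65 and Csn1s1 -2.31, each past the test (limma, adjusted p = 0.000200, 0.00100 and 0.000416). The difference between the sets of days was itself past the test for 3 genes of 19938 (0.015%; 1766 at an unadjusted p under 0.05), none of them among the 60. Gpr50, an orphan receptor gene, was -0.84 on days 4 to 6 and -2.97 on days 8 and 10 (difference 2.14 ± 0.25, adjusted p = 0.0304). Iigp1, an interferon-inducible GTPase gene, was 0.45 and 2.46 (difference -2.02 ± 0.22, adjusted p = 0.0264). Pramel27, a gene of a family expressed in germ cells and early embryos, was -0.58 and then 1.51 (difference -2.09 ± 0.20, adjusted p = 0.0143). Leaving out day 8 or day 10 left 0 genes past this test, leaving out day 4 left 1 and leaving out day 6 left 2. Trh, Vtcn1, Sbspon and Aspn had the opposite sign on both later days. Trh, 1.27 on days 4 to 6, was -0.47 on day 8 and -0.25 on day 10 (untreated cells the higher); the difference between the sets did not pass (adjusted p = 0.0603). Aspn turned from -0.95 to 1.13 on day 8 and 0.42 on day 10, which did not pass either (adjusted p = 0.118). The interferon response median was 1.52 on day 8 and 0.79 on day 10, against 1.09 on day 6.

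**Figure D4:**
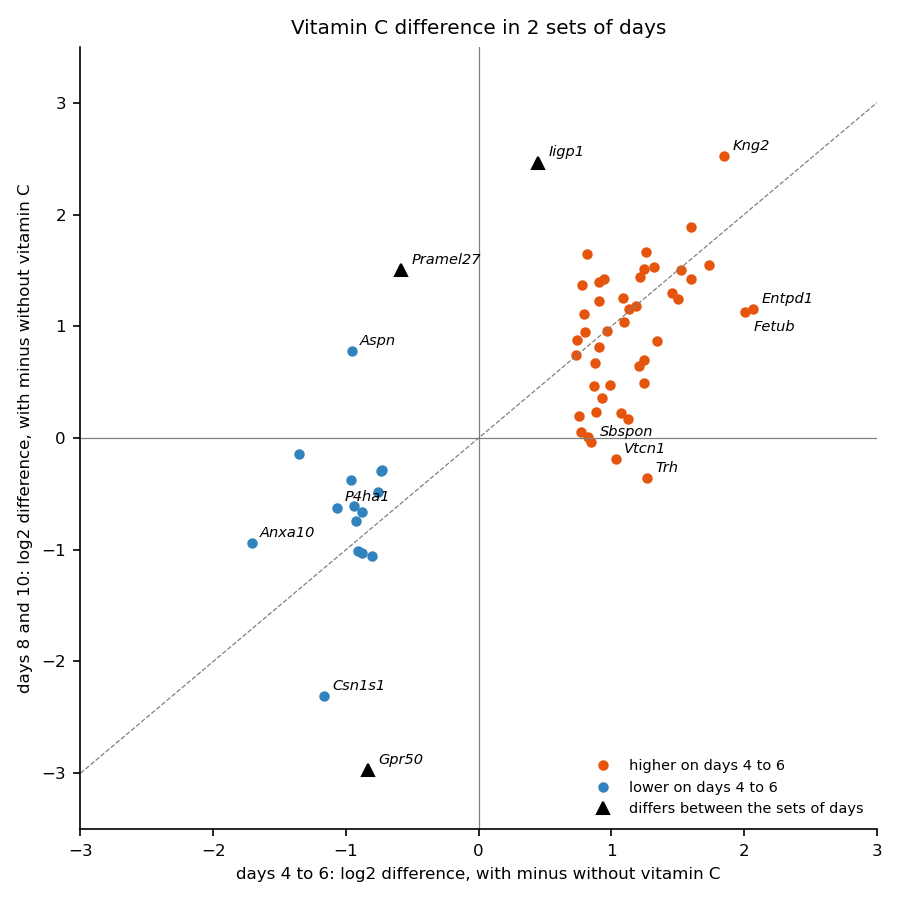
Mean log2 difference between arrays with and without vitamin C on days 4 to 6 (horizontal) and on days 8 and 10 (vertical) for the 45 higher and 15 lower genes of days 4 to 6 (circles) and the 3 genes whose difference changed between the sets (triangles); the dashed line marks equal differences. Trh, Vtcn1, Sbspon and Aspn lie across the horizontal zero line, and Kng2 is the highest circle at 1.85 and 2.52.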

How the data were processed

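Trizol RNA was labelled with biotin as cDNA (100 ng input) and hybridised to Affymetrix whole-transcript arrays, per the labels. The authors deposited 1 log2 value per probe and array, made with RMA and Partek per the submitters' processing notes, which name no versions. The log2 scale was read from the values (0.724 to 14.1), and RMA compresses differences of weak genes. The 28853 probes gave 19938 genes; of several probes for 1 gene the brightest was taken, and probes with several symbols or none were left out. Symbols came from the platform annotation, updated through RefSeq (GRCm38.p6), whose promoter table matched 15614 of the genes.

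Differences were fitted with limma 3.58.1 in R 4.3.3 on 12 arrays of SKO cells, with a term for each day and a separate vitamin C effect for day 3, days 4 to 6, and days 8 and 10. This left 3 residual degrees of freedom, 2 of them from days 4 to 6. The variance of each gene was moderated with 7.57 prior degrees of freedom estimated over all genes, so standard errors are not those of the gene alone. Benjamini-Hochberg adjustment ran over all genes, at 0.05. The labels pair the arrays by day; deviations of partners from the means of their arms correlated at 0.279 to 0.616. The script was tested on simulated data. The rule for names covers, per direction, the 12 largest differences past the test, a fixed set of genes and the 4 largest differences of each list; genes of receptor clusters are counted without a name. Not every list member it covers is described, and some names, defining cell markers among them, lie outside it. Of 797 genes on 31 lists 744 were measured. The arrays, lists and rules were chosen with earlier results of these data known. Alternatives were quantile normalization, median centring, a filter on weak genes, variance settings, the mean of a gene's probes, 6 arrays only, no day term and leaving out a day; the alternation score as a covariate was added after seeing the data. Figures were drawn with matplotlib 3.10.9.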

Additional observations from a re-analysis of the deposited data

Results flagged for a closer look

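For 3 genes the vitamin C difference of days 4 to 6 differed from that of days 8 and 10 by the test of the difference itself (limma, adjusted p under 0.05). The earlier difference minus the later one was 2.14 in Gpr50 (adjusted p = 0.0304), -2.02 in Iigp1 (adjusted p = 0.0264) and -2.09 in Pramel27 (adjusted p = 0.0143). For 4 of the 60 genes past the test on days 4 to 6, each of the earlier days went one way and both later days the other. There the earlier difference minus the later one was 1.63 in Trh (adjusted p = 0.0603), 1.23 in Vtcn1 (adjusted p = 0.191), 0.88 in Sbspon (adjusted p = 0.337) and -1.73 in Aspn (adjusted p = 0.118), and none of these passed.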

How the results depend on the processing

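The count of 60 genes past the test on days 4 to 6 was 51 with the 6 arrays alone, 53 after quantile normalization, 63 after median centring and 60 with robust variances or the mean of a gene's probes. It was 167 (126 higher, 41 lower) without the weakest genes and 230 (150 higher, 80 lower) with an intensity trend; of the 60, 56 and 60 were among these. With no replicate block, that is without pairing the arrays by day, it was 0, and with the alternation score as a covariate, chosen after seeing the data, it was 1. Leaving out a day gave 3 to 62. Without day 8 or without day 10 the test of days 4 to 6 was the same as with the 6 arrays alone (51 genes). No gene of the 60 changed direction in any of these settings, which was largely fixed beforehand. Each had 1 direction on all 3 days, so leaving out a day could not turn it. The 6 arrays alone, no day term, robust variances, the trend and the filter keep the estimate unchanged. Nothing is therefore read from the lack of turns. The count of genes that differed between days 4 to 6 and days 8 and 10 (3) was 1 after quantile normalization, 5 after centring, 7 without weak genes, 28 with the trend and 0 to 3 without a day. Drift within days 4 to 6 gave 1 gene without weak genes (smallest adjusted p 0.0481) and 1 with the trend (0.0247), and day 3 gave 0 genes in every setting. The 1.5-fold count (63 higher and 18 lower) lay between 72 and 80 in the settings with all days, and leaving out a day, which asks for fewer days, gave 138 to 237. The 2 scalings moved the median of all genes by -0.0044 and -0.017.

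Signs turned among genes that did not pass. With the covariate Sox2 was -0.0698, Cdh1 -0.0293, Slc23a2 -0.0061, Tet3 -0.16, Thy1 -0.12, Col1a1 -0.11, Akr1a1 0.0516, Myl9 -0.26 and Mrc1 0.0713. Col1a1 was -0.0059 after quantile normalization and -0.0123 after centring. Leaving out a day gave ranges of -0.0465 to 0.16 for Sox2, -0.25 to 0.0679 for Kdm2b, -0.11 to 0.0406 for Cdkn2b, -0.0059 to 0.31 for Cdkn2a, -0.21 to 0.047 for Gata1, -0.25 to 0.18 for Hba-x, -0.0462 to 0.21 for Cdh1, -0.29 to 0.0297 for Slc23a1, -0.0912 to 0.15 for Slc23a2, -0.18 to 0.18 for Tet3, -0.12 to 0.43 for Thy1, -0.0775 to 0.0659 for Col1a1 and -0.0889 to 0.60 for Myl9. The cause was not tested. Signal over background was not in the file, so the limit for weak genes is unknown.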
